A study of Mus musculus with 9 samples.

Results

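The transcripts described here are 10 mouse genes that mark the mesothelium and the epicardium or encode keratins: Msln, Muc16, Upk3b, Upk1b, Lrrn4, Wt1, Krt8, Krt18, Krt19 and Krt14. They are 10 of the 53465 gene rows of the count files, matched by Ensembl ID, and all 10 were among the 13825 genes that passed the filter on low counts. RNA was sequenced from heart tissue of NOD-SCID mice, an immunodeficient strain that all groups share. The groups were sham surgery, ligation of a coronary artery, and ligation followed by implantation of cells called FOXO3-GE-MPCs, with 3 libraries each. The labels name the border zone of the infarct as the sampled region in every group, also in sham hearts, which have no infarct by their treatment label. They give no age, sex, dose or time after surgery, and neither the species of the implanted cells nor whether hearts were pooled. For cell replicates 2 and 3 the source label reads FOXO4 and FOXO5; their titles and treatments read FOXO3, which was followed.

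The mesothelium is a sheet of flattened epithelial cells that lines the pericardial cavity and covers the heart as the epicardium. Its cells carry surface glycoproteins such as mesothelin and a cytoskeleton of simple epithelial keratins. The epicardium is known to thicken and to reactivate a developmental programme after cardiac injury. Keratin filaments are built from pairs of 1 acidic type I keratin, such as Krt18, Krt19 or Krt14, and 1 basic type II keratin, such as Krt8, Krt7 or Krt5. In bulk tissue, more cells of a type and more RNA per cell cannot be told apart.

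The RefSeq table of promoters (GRCm38.p6) held 6 of the 10 genes. The 250 bases before the RefSeq start are shown for 3 mesothelial surface genes whose levels are the subject of the first results, and capitals mark the letters GGAATG or their reverse complement, the core recognised by TEAD factors.
Upk3b, chr5:136038246-136038495, plus strand: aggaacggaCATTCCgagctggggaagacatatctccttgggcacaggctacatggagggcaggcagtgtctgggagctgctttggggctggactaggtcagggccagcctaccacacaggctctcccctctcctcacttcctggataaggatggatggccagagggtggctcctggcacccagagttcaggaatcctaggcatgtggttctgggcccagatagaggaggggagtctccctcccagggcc
Lrrn4, chr2:132880863-132881112, minus strand: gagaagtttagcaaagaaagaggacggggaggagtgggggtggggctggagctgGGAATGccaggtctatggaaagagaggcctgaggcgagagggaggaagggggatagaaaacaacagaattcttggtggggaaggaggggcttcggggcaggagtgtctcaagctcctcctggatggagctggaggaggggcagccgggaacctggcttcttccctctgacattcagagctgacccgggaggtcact
Muc16, chr9:18674604-18674853, minus strand: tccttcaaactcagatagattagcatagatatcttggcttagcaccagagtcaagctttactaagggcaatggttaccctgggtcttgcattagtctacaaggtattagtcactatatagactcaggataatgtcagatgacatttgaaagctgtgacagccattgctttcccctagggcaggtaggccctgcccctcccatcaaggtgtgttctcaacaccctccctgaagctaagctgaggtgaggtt
The Upk3b window holds the core with its first base at -241 and the Lrrn4 window at -196, counted from the start, while these letters are not in the Muc16 window. Of the 6 windows, that of Krt14 also holds it, at -66. The RefSeq and GENCODE starts are the same for Upk3b alone among the 6, so positions in the other windows depend on the start used. For Krt14 the GENCODE start lies at -1518 from the RefSeq start, so its whole window lies inside the GENCODE gene. Among 32851 promoter windows of the same length, 12.6% hold the core on either strand. The letters GGGCGG (SP1, in 32.7% of windows), GCGTGGGNG (WT1 and EGR1, 1.65%), TGANTCA (AP-1, 6.75%) and TATAAA (the TATA box, 12.4%) are in none of the 6 windows. Such matches describe the letters only.

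Libraries held 4549268 to 7515052 reads counted in genes, and 3 counts were worth 0.375 to 0.639 CPM (each count as a share of its library's gene counts, in parts per 1e+06, scaled with TMM factors so that most genes have equal levels). Of the cardiomyocyte markers, all 7 were detected in every library, and their summed level was 45608 to 47035 CPM in sham, 34843 to 36622 after ligation and 34040 to 34867 with cells. The headers of sham replicates 1 and 2 share a name stem, as do those of ligation replicates 2 and 3. In counts, the mean chi-square per gene was 3.96 for the first of these pairs and 2.30 for the second, and 1.98 to 3.65 for the other pairs, where sampling noise alone gives about 1. No pair was therefore treated as a library deposited more than once. Of all genes called after ligation 52.7% were higher, and 78.7% were with library totals alone in place of TMM, a scaling that puts the median of all genes at 0.20 on the log2 scale. Since the labels do not say that libraries came from separate animals, the spread between them may be technical.

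After ligation, the 10 genes were all at a higher mean level than in sham. Among the 9 genes with counts in sham, the increase was largest for surface proteins of the mesothelium (Upk1b, Muc16, Lrrn4, each about 16-fold), intermediate for Msln, Upk3b and Krt19, and small for Wt1. The genes were chosen by their CPM over the 3 groups, so the values of the 10 are given as a description, and their calls in the fit, here and in the other comparisons, are counted only to stand beside the share of all genes. By edgeR's quasi-likelihood test all 10 lay past an adjusted p of 0.05 as higher, beside 20.1% of all tested genes (18.0% were lower, 38.2% either). The CPM ranges of the groups did not overlap for 9 of the 10, beside 25.0% of all tested genes that were higher without overlap and 22.6% that were lower. Neither count is read as a result, because the same contrast chose the genes.

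**Figure D1:**
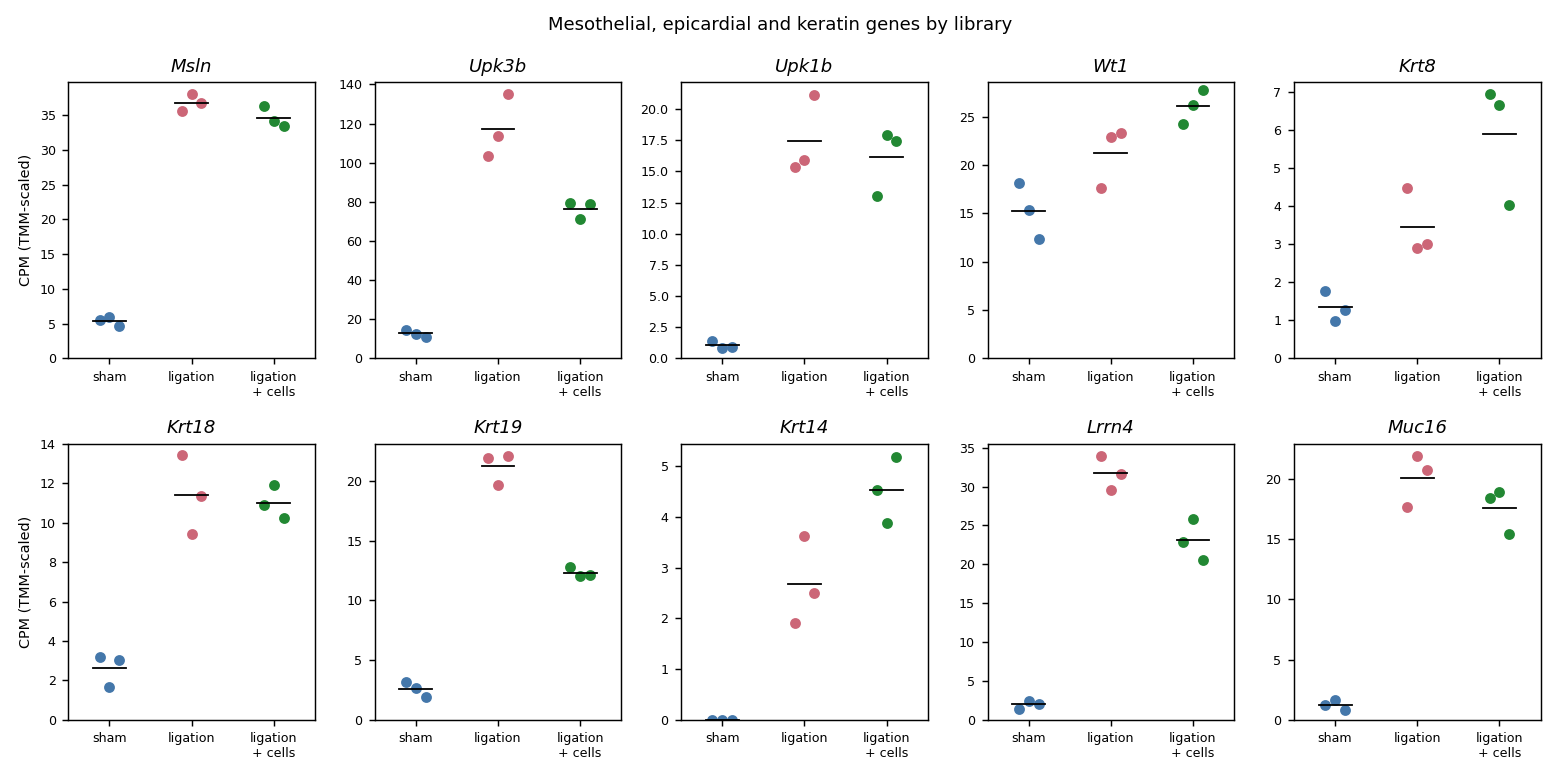
Level of each of the 10 genes in CPM (vertical axes, linear from 0) in the 3 groups (horizontal axes), with 1 point per library and a bar at the group mean (n = 3). For Msln the ligated libraries lie at 35.6 to 38.1 CPM against 4.60 to 5.93 in sham, and Upk3b, Krt19 and Lrrn4 lie lower with cells than with ligation alone.

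Mesothelin (Msln, ENSMUSG00000063011, chromosome 17, 25748613 to 25754378, minus strand, GRCm38) is a surface glycoprotein of mesothelial cells. It was at 5.52, 5.93 and 4.60 CPM in sham replicates 1 to 3, at 35.6, 38.1 and 36.8 CPM after ligation, and at 36.3, 34.1 and 33.4 CPM with cells. Every ligated library lay far above every sham library, and the libraries with and without cells overlapped. The log2 fold change was 2.78 (SE 0.126) for ligation against sham and -0.09 (SE 0.0915) for cells against ligation.

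Muc16 (ENSMUSG00000109564, chromosome 9, 18495455 to 18674530, minus strand), the large mucin that binds mesothelin, had the longest transcript of the 10, at 25437 bases. Its levels were 1.25, 1.65 and 0.794 CPM in sham, 17.7, 21.8 and 20.8 CPM after ligation and 18.4, 18.9 and 15.4 CPM with cells. Sham libraries held 5 to 10 counts of it, ligated ones at least 83. The mean was 16.3-fold higher after ligation (log2 fold change 4.03, SE 0.227), and libraries with and without cells overlapped (-0.20, SE 0.137).

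Uroplakins are membrane proteins best known from the plaques of the bladder surface, and Upk3b is also a marker of mesothelium. Upk3b (ENSMUSG00000042985, chromosome 5, 136038496 to 136046487, plus strand) had the highest CPM of the 10 in both ligated groups. It was at 14.6, 12.5 and 11.1 CPM in sham, at 103, 113 and 135 CPM after ligation and at 79.3, 71.3 and 79.1 CPM with cells. The 3 groups did not overlap. Its log2 fold change was 3.21 (SE 0.111) for ligation against sham, and it was 1.54-fold lower with cells than with ligation alone (-0.62, SE 0.0857).

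Upk1b (ENSMUSG00000049436, chromosome 16, 38773184 to 38800328, minus strand) is a tetraspanin, the partner class of the uroplakin III proteins. It was at 1.42, 0.824 and 0.952 CPM in sham, with 5 to 8 counts a library. After ligation it was at 15.3, 15.9 and 21.1 CPM and with cells at 13.0, 17.9 and 17.4 CPM. Ligated libraries lay above all sham libraries, with a log2 fold change of 4.04 (SE 0.266), and the libraries with and without cells were mixed (-0.13, SE 0.158). The other uroplakins listed (Upk1a, Upk2, Upk3a and Upk3bl) did not pass the filter, and their summed level was 0.694 to 1.98 CPM over all 9 libraries.

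Lrrn4 (ENSMUSG00000043110, chromosome 2, 132868305 to 132880891, minus strand) encodes a leucine-rich repeat membrane protein that is used as a mesothelial marker. It was at 1.42, 2.47 and 2.06 CPM in sham, at 33.9, 29.5 and 31.6 CPM after ligation and at 22.8, 25.8 and 20.6 CPM with cells. The groups were separate in each comparison, with cells between sham and ligation. The log2 fold change was 3.97 (SE 0.182) for ligation against sham and -0.45 (SE 0.116) for cells against ligation.

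Wt1 (ENSMUSG00000016458, chromosome 2, 105126529 to 105173616, plus strand) is a zinc finger transcription factor of the epicardium that is also found in vascular cells of the injured heart. Its levels were 18.2, 15.3 and 12.4 CPM in sham, 17.7, 22.9 and 23.4 CPM after ligation and 24.3, 26.2 and 27.8 CPM with cells. Of the 10 genes it had the highest mean CPM in sham, and it was the only one whose sham and ligation libraries overlapped. The log2 fold change was 0.50 (SE 0.143) for ligation against sham. Without sham replicate 3 or ligation replicate 3 it was not among the called genes there, which leaves 9 of the 10. Every cell library lay above every ligation library (log2 fold change 0.27, SE 0.131).

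Keratins 8 and 18 are the standard pair of simple epithelia. Krt18 (ENSMUSG00000023043, chromosome 15, 102028180 to 102032027, plus strand) was at 3.20, 1.65 and 3.02 CPM in sham, at 13.4, 9.41 and 11.4 CPM after ligation and at 10.9, 11.9 and 10.2 CPM with cells. Ligated libraries lay above sham in both groups (log2 fold change 2.10, SE 0.240, after ligation), and those with cells fell within the range of ligation alone (-0.03, SE 0.184). Krt8 (ENSMUSG00000049382, chromosome 15, 101996698 to 102004482, minus strand) was at 1.78, 0.988 and 1.27 CPM in sham, at 4.47, 2.89 and 3.0 CPM after ligation and at 6.95, 6.66 and 4.03 CPM with cells. It was 2.49-fold higher after ligation than in sham (1.32, SE 0.380). With cells its mean was 1.75-fold that of ligation (0.80, SE 0.292), but cell replicate 3 lay below ligation replicate 1. Krt8 shares 36.0% and Krt18 11.4% of their 31-base words with other genes, among them the pseudogene Krt8-ps for Krt8, so their counts are uncertain to that extent.

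Krt19 (ENSMUSG00000020911, chromosome 11, 100140810 to 100148665, minus strand) is the smallest keratin, found in simple epithelia. It was at 3.20, 2.64 and 1.90 CPM in sham, at 21.9, 19.7 and 22.1 CPM after ligation and at 12.8, 12.1 and 12.1 CPM with cells. The 3 groups were separate. Its log2 fold change was 3.04 (SE 0.185) for ligation against sham and -0.79 (SE 0.136) for cells against ligation.

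Krt14 (ENSMUSG00000045545, chromosome 11, 100203162 to 100207548, minus strand) is the type I keratin of the basal layer of stratified epithelia, where it pairs with Krt5. It had 0 counts in all 3 sham libraries, 9, 25 and 20 counts after ligation and 32, 28 and 36 counts with cells. In CPM this was 1.92, 3.62 and 2.50 after ligation and 4.54, 3.88 and 5.19 with cells. Taking 3 counts in the shallowest sham library as the floor, Krt14 was at least 5.02-fold higher after ligation and at least 8.50-fold higher with cells. The cell libraries all lay above the ligation libraries (log2 fold change 0.73, SE 0.314). Its partner Krt5 had 0 counts in all 9 libraries. Krt14 shares 28.2% of its 31-base words with other genes, among them Krt16, Krt17 and Krt42. Krt16 and Krt17 also had 0 counts in all 9 libraries, and Krt42 was not among the listed keratins.

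**Figure D2:**
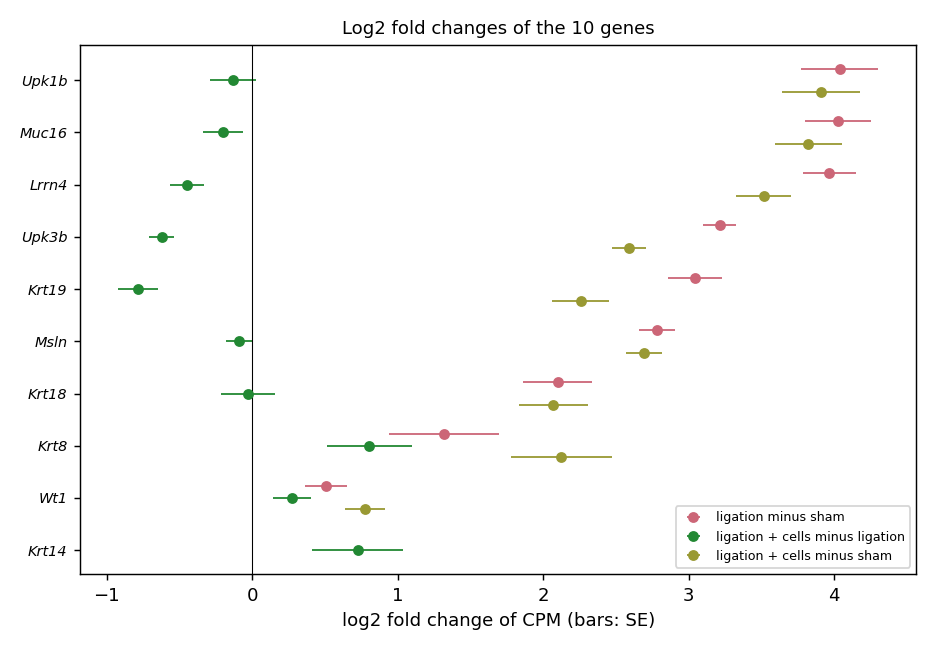
Log2 fold change of each of the 10 genes (horizontal axis, bars are SE) in the 3 comparisons, ordered by the change after ligation. Upk1b, Muc16 and Lrrn4 lie near 4 after ligation and Wt1 at 0.50, and for Krt14 only cells against ligation is drawn, because sham held 0 counts.

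Between genes, levels were compared per kilobase of the principal GENCODE transcript. In sham the order in CPM per kb was Wt1 (9.84), Upk3b (3.61), Msln (2.47), Krt18 (1.82), Krt19 (1.64), Krt8 (0.687), Upk1b (0.563), Lrrn4 (0.535), Muc16 (0.0483) and Krt14 (0). Libraries of the neighbours Msln and Krt18, Krt18 and Krt19, Krt8 and Upk1b, and Upk1b and Lrrn4 overlapped there. After ligation Upk3b led with 33.2, before Msln (17.0), Wt1 (13.7), Krt19 (13.5), Upk1b (9.22), Lrrn4 (8.53), Krt18 (7.93), Krt8 (1.77), Krt14 (1.58) and Muc16 (0.790). Neighbours whose libraries overlapped there were Wt1 and Krt19, Upk1b and Lrrn4, Lrrn4 and Krt18, and Krt8 and Krt14. With cells the order began with Upk3b (21.7), Wt1 (16.8) and Msln (16.0), of which the last 2 overlapped, and Krt19 (7.81 CPM per kb) overlapped with Upk1b and with Krt18. The order depends on the length used. For Wt1 this matters most: per kilobase of all its exons it was at 2.47, 3.44 and 4.21, the second highest in sham and the seventh in both ligated groups. On that length Krt18 (1.82) also lay above Msln (1.75) in sham.

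Ratios within a library do not depend on the scaling between libraries. Upk3b counts were 2.11 to 2.65 times those of Msln in sham, 2.90 to 3.67 times after ligation and 2.09 to 2.37 times with cells. For Krt19 the ratio to Msln was 0.414 to 0.581 in sham, 0.517 to 0.617 after ligation and 0.352 to 0.362 with cells. Both ratios were lower in every cell library than in every ligation library, which restates the lower levels of Upk3b and Krt19 beside those of Msln. Upk1b to Msln was 0.139 to 0.258 in sham, 0.418 to 0.575 after ligation and 0.359 to 0.524 with cells, so the ligated groups overlapped. The ratio of Wt1 to Msln was 2.58 to 3.29 in sham, 0.497 to 0.636 after ligation and 0.668 to 0.832 with cells. Lrrn4 to Msln was 0.258 to 0.448 in sham, 0.776 to 0.952 after ligation and 0.616 to 0.756 with cells. Muc16 to Msln was 0.172 to 0.278 in sham, 0.497 to 0.574 after ligation and 0.461 to 0.553 with cells, so the ligated groups overlapped and lay above sham.

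The keratins were also set against each other as filament partners. The summed type I keratins Krt14, Krt18 and Krt19 were at 2.82 to 4.26 CPM per kb in sham, 21.2 to 24.4 after ligation and 17.8 to 18.4 with cells. The type II keratins Krt7 and Krt8 summed to 0.842 to 1.21, 2.22 to 3.17 and 3.22 to 5.13 CPM per kb. Type I exceeded type II by 3.11 to 3.93 times in sham, 7.70 to 9.53 times after ligation and 3.56 to 5.54 times with cells. For these 5 keratins the ratio was highest in the ligation libraries. Other tested keratins were added to the sums as alternatives chosen after seeing the data. With Krt10 (type I) and Krt80 (type II) the ratios were 3.57 to 5.53 in sham, 4.70 to 5.91 after ligation and 3.07 to 3.91 with cells, and ligation overlapped with sham. With Krt222, a keratin-like gene, also counted as type I they were 7.68 to 10.6, 5.68 to 7.54 and 4.29 to 5.28, and sham was highest. The order of sham and ligation thus rests on which keratins are summed. With the length of all exons the ratios of the 5 keratins were 3.48 to 4.11, 7.95 to 10.1 and 3.86 to 6.07. Krt19 made up 36.5% to 59.3% of the type I sum of 3 keratins in sham, 57.1% to 59.9% after ligation and 42.0% to 44.1% with cells.

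**Figure D3:**
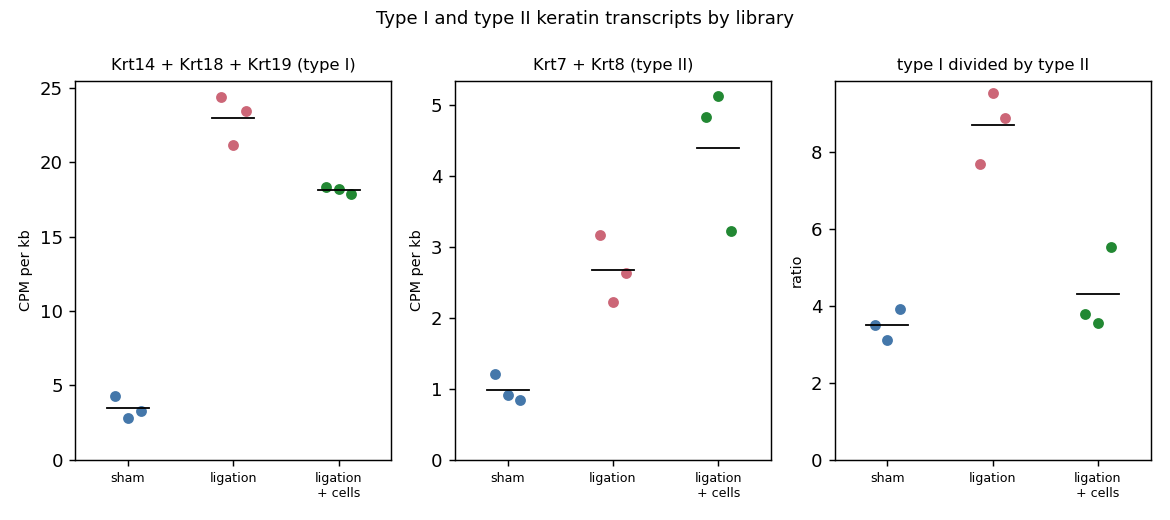
Summed type I keratins (left), summed type II keratins (middle, both in CPM per kb) and their ratio (right) in the 3 groups, 1 point per library with a bar at the mean. The ratio lies at 7.70 to 9.53 after ligation, above the 3.11 to 3.93 of sham and the 3.56 to 5.54 of the cell group, an order of ligation and sham that does not hold with Krt10, Krt80 and Krt222 added.

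With cells against ligation alone, the 10 genes did not move in 1 direction. This comparison shares the ligation libraries with that of ligation against sham, where their errors have the opposite sign. Upk3b, Krt19 and Lrrn4 were lower with cells, and these 3 lay past an adjusted p of 0.05 by edgeR as lower, beside 5.69% of all tested genes (4.19% were higher, 9.87% either). Msln, Muc16, Upk1b and Krt18 had log2 fold changes of -0.20 to -0.03, and their libraries overlapped. Wt1, Krt8 and Krt14 had higher means with cells. CPM ranges did not overlap for Wt1 and Krt14 as higher, beside 13.2% of all tested genes, and for Upk3b, Krt19 and Lrrn4 as lower, beside 14.0%. The median log2 fold change of the 10 was -0.11, and that of all tested genes was 0.00195. Without ligation replicate 1, ligation replicate 3 or cell replicate 3, and by DESeq2, Lrrn4 was no longer past the threshold. Without cell replicate 3, Krt8 was past it as higher. Whether any reads came from the implanted cells was not analysed here.

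Ligated hearts with cells were set against sham as well, and this comparison shares its libraries with both others. All 10 genes lay past the threshold as higher, beside 21.0% of tested genes (40.9% in either direction), and all 10 had CPM ranges above sham without overlap, beside 25.4% of tested genes (24.5% were lower). The log2 fold changes ran from 0.78 (SE 0.139) for Wt1 to 3.91 (SE 0.268) for Upk1b among the 9 genes with sham counts. For Upk3b it was 2.59 (SE 0.115), for Krt19 2.26 (SE 0.198) and for Lrrn4 3.52 (SE 0.189), so the 3 genes that were lower with cells still lay well above sham.

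Of 19 further mesothelial and epicardial genes, 17 were tested. After ligation 16 of the 17 rose in the edgeR fit at an adjusted p under 0.05, where 20.1% of all genes did, and the median log2 fold change was 1.34 against 0.00804 over all genes. Of these genes Bnc1, Slpi, Dmkn and Nkain4 did not reach the level of the low-count filter, 1.48 CPM, in every sham library. They were tested through their ligated levels, and the count rests partly on the filter. The list was also chosen with earlier results of these data known, so the count and the median are given as a description. The largest changes were in Nkain4, a sodium pump interacting protein, from 1.99 ± 0.790 to 21.3 ± 1.49 CPM (mean ± SD, n = 3; log2 fold change 3.40, SE 0.211, edgeR adjusted p 6.08e-11), Bnc1 and Slpi. Bnc1, a zinc finger factor of mesothelium, rose by 3.24 (SE 0.458) and was at 3.41, 4.20 and 8.13 CPM in the ligation libraries against at most 0.712 CPM in sham. Slpi, a secreted protease inhibitor, rose by 3.17 (SE 0.600). Gpm6a, a membrane glycoprotein, rose by 1.96 (SE 0.116), from 9.97 ± 1.28 to 38.8 ± 3.11 CPM.

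Of the genes named whatever their values, 3 more were in this list. Tbx18, a T-box factor, went up from 6.34 ± 1.39 to 10.4 ± 0.946 CPM (log2 fold change 0.71, SE 0.190, edgeR adjusted p 0.00562), and Aldh1a2, which makes retinoic acid, from 12.4 ± 3.70 to 21.1 ± 4.62 CPM (0.78, SE 0.181, edgeR adjusted p 0.00173). Tcf21, a factor of epicardium-derived fibroblasts, was at 18.4 ± 2.63 and 19.3 ± 1.48 CPM and did not pass (0.08, SE 0.129, edgeR adjusted p 0.664). Calb2, a marker of human mesothelium, had 0 counts in all 9 libraries, and Bnc2 was the other listed gene that did not reach the filter.

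With cells against ligation 5 of the 17 passed, each lower, where 5.69% of all genes were called lower. The ligation libraries also enter the comparison with sham, and their errors enter both with opposite signs. Nkain4 fell to 13.4 ± 1.31 CPM (log2 fold change -0.67, SE 0.146, edgeR adjusted p 0.00445). Cldn15, a claudin of tight junctions, fell from 26.0 ± 4.38 to 16.0 ± 1.85 CPM (-0.69, SE 0.144, edgeR adjusted p 0.00312). Aldh1a2 fell to 12.5 ± 0.318 CPM (-0.77, SE 0.176, edgeR adjusted p 0.0066), a mean close to that of sham. Gpm6a was at 31.5 ± 0.964 CPM (-0.31, SE 0.0957, edgeR adjusted p 0.0463), and Pdpn, named after its values were seen, was the remaining one (-0.52, SE 0.158, edgeR adjusted p 0.0384). The call of Gpm6a was lost in 9 of 17 alternatives. The other 12 did not pass, among them Bnc1 (-0.69, SE 0.320) and Tbx18 (-0.23, SE 0.176). Without ligation replicate 3 only Nkain4 and Cldn15 passed as lower. Without ligation replicate 2, cell replicate 1 or cell replicate 2, and by DESeq2, 3 genes did so, Aldh1a2 with them. The same 3 passed with the replicate number as a block and with libraries of a shared header stem summed. The calls of Pdpn and Gpm6a were lost in each of these fits.

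**Figure D4:**
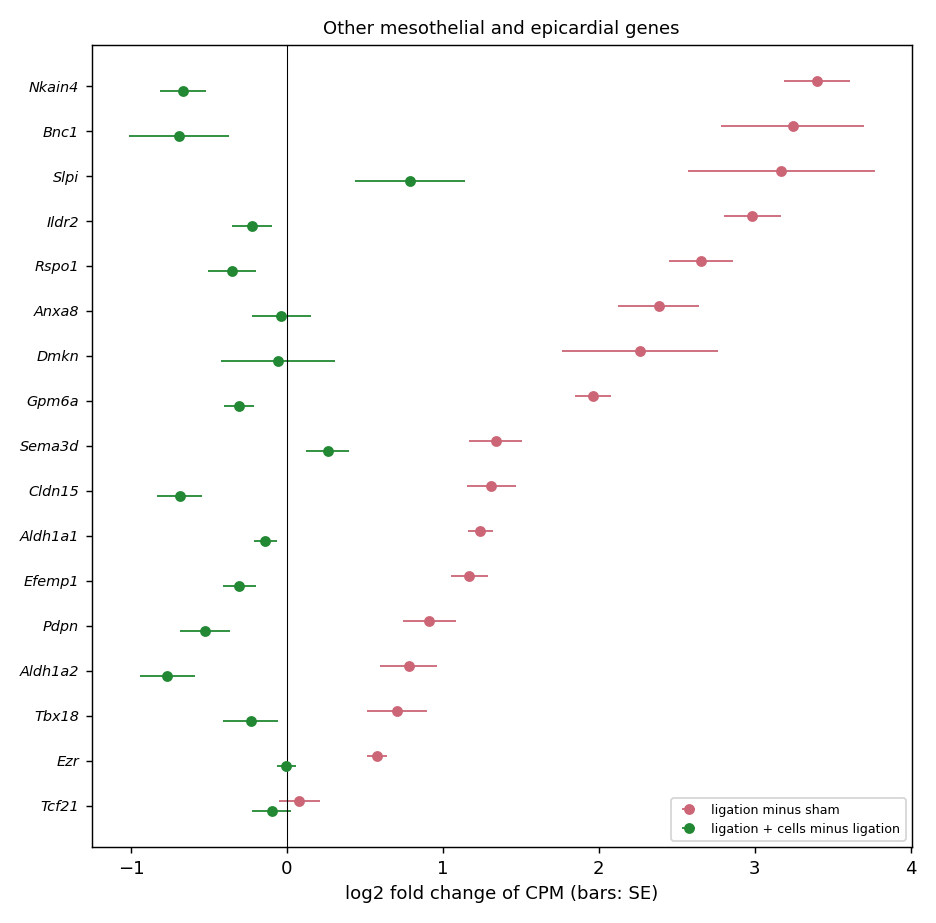
Log2 fold change (horizontal axis, bars are SE) of the 17 tested genes of the further mesothelial and epicardial list, for ligation minus sham and for ligation with cells minus ligation. All points but that of Tcf21 lie clearly above 0 after ligation, and most lie below 0 with cells, where 5 passed the threshold.

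Against sham, 13 of the 17 were higher with cells by the same edgeR test, where 21.0% of all genes were. Bnc1, Slpi, Dmkn and Nkain4 are among the 13 and were tested through their ligated levels, so this count also rests partly on the filter. Slpi (log2 fold change 3.96, SE 0.542), Ildr2 (2.76, SE 0.183) and Nkain4 (2.73, SE 0.223) led. Aldh1a2 (0.01, SE 0.192), Tbx18 (0.48, SE 0.192), Tcf21 (-0.02, SE 0.129) and Pdpn did not pass.

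Among 17 keratins outside the 10 genes, 4 reached the filter. After ligation 2 of them rose, where 20.1% of all genes did, but both reached the filter's level in 1 sham library only. They were tested through their ligated levels, so this count is not read as a result. Krt80 went from 1.66 ± 0.701 to 6.87 ± 1.75 CPM (log2 fold change 2.01, SE 0.318, edgeR adjusted p 3.57e-05). Krt7, the simple epithelial type II keratin, went from 1.23 ± 0.427 to 3.72 ± 0.736 CPM (1.60, SE 0.365, edgeR adjusted p 0.00153). Both were also higher than in sham with cells (1.69, SE 0.324, and 2.20, SE 0.342). With cells against ligation 1 of the 4 passed, where 9.87% of all genes did: Krt222, a keratin-like gene, which rose from 16.8 ± 2.84 to 24.4 ± 2.41 CPM (0.55, SE 0.134, edgeR adjusted p 0.0104). Its call was lost without ligation replicate 3. Krt7 was at 5.69 ± 1.22 CPM with cells and did not pass there (0.60, SE 0.277, edgeR adjusted p 0.198).

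Markers of other tissues were read beside these results. Of 16 epithelial markers 3 were tested, Sfn, Cldn3 and Cdh3. Cldn3 was at 0.224 ± 0.195 CPM in sham, 2.33 ± 0.416 after ligation and 1.99 ± 0.320 with cells, and Cdh3 at 0.621 ± 0.555, 2.56 ± 1.19 and 3.87 ± 0.753 CPM. Both passed the filter only through the ligated groups, so no count of calls is read from this list. Sfn had means of 2.91, 1.46 and 1.32 CPM, and none of its cell libraries reached the filter's level. The list summed to 4.45 to 7.58 CPM in sham, 8.10 to 11.3 after ligation and 9.43 to 12.2 with cells. Epcam, the general marker of epithelial cells, had 5 counts in ligation replicate 2 and 0 in every other library, and Cdh1 had at most 6 counts in any. Of 11 airway and alveolar markers 2 were tested. Aqp5, a water channel, had 0 counts in sham, passed the filter only through the ligated groups and was at least 5.97-fold higher after ligation and at least 3.70-fold higher with cells. That list summed to 0.988 to 2.31 CPM in sham, 6.38 to 6.95 after ligation and 3.89 to 5.27 with cells, with Nkx2-1, Sftpa1 and Sftpd at 0 counts in every library. Sftpb, the other tested member, was at means of 1.07, 1.45 and 1.79 CPM in these groups, and Scgb1a1, a club cell gene named after its values were seen, had 0 counts in sham, 15 in all after ligation and 1 with cells. Of 5 thymic epithelial markers, Foxn1 and Psmb11 were at 0 counts throughout, Prss16 and Aire had at most 7 counts in any library, and the tested member, Ccl25, was at means of 3.90, 3.16 and 2.36 CPM and did not pass in any comparison.

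Other cell types moved with the groups too. Fast skeletal muscle markers summed to 3.74 to 7.25 CPM in sham, 11 to 15.3 after ligation and 1.99 to 3.89 with cells, and Pvalb, a calcium buffer of that muscle, was at 0.596 ± 0.391, 3.18 ± 0.877 and 0.0953 ± 0.0825 CPM, having passed the filter only through the ligation group. Fibroblast and matrix markers summed to 2498 to 2558 CPM in sham, 4464 to 4549 after ligation and 4189 to 4297 with cells, and of the 8 genes 6 rose and 1 fell after ligation, where 38.2% of all genes were called. Postn rose by 2.34 (SE 0.0600) and Col3a1 by 1.38 (SE 0.0385), while Pdgfra fell by 0.20 (SE 0.0797) and Dpt did not pass (-0.09, SE 0.0540). The 10 genes themselves summed to 38.1 to 50.5, 265 to 308 and 225 to 229 CPM. The part of these other cells in the values of the 10 genes was not tested.

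**Figure D5:**
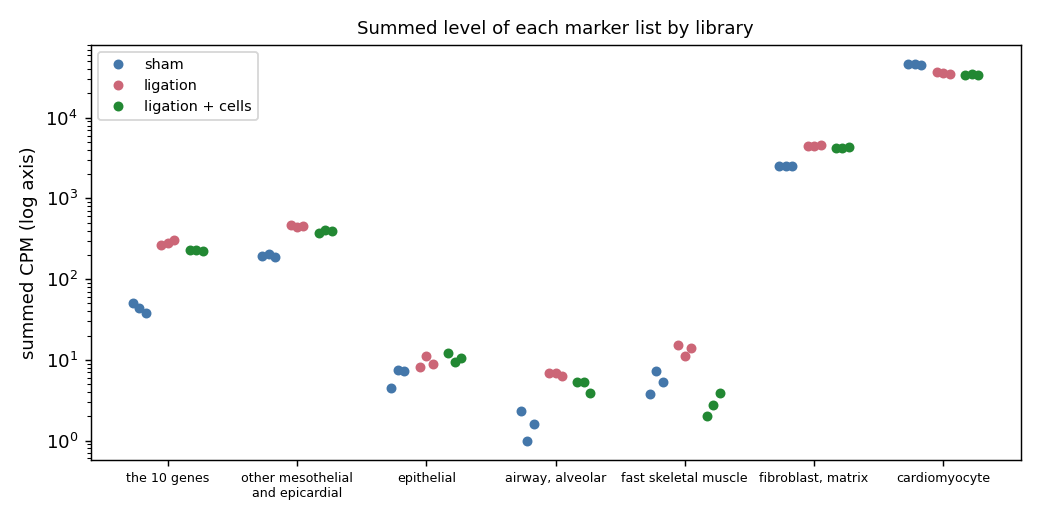
Summed CPM (vertical log axis) of the 10 genes and of 6 marker lists, 1 point per library, coloured by group. The 10 genes lie at 265 to 308 CPM after ligation against 38.1 to 50.5 in sham, and fast skeletal muscle markers are highest after ligation at 11 to 15.3 CPM.

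The genes with the most similar course over the 9 libraries were sought by the mean absolute difference of centred log2 CPM among 13794 genes. Nearest to Msln were Scd1 (0.128), Gpnmb (0.145) and Myrf (0.146), and nearest to Krt8 were Rab11fip1 (0.226), P2rx1 (0.226) and Sema3d (0.229). Krt14 was nearest to Saa3 (0.302), Angptl7 (0.330) and Comp (0.349). Each of the 9 genes was higher in both ligated groups than in sham, which follows from their choice by likeness to genes with that order. Scd1, for example, was at 41.2 CPM in sham, 263 CPM after ligation and 283 CPM with cells.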

How the data were processed

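RNA from the hearts of 3 groups of 3 libraries was extracted with TRIzol and made into libraries with the NEBNext Ultra RNA kit, per the labels' protocols. Each library has 1 deposited file of unnormalized counts by mouse Ensembl gene. The build is mm10 per the submitters' processing notes, and the aligner, the counter and the strand setting are not given in the sources used here. Lines that name no gene (12.3% to 13.6% of reads) were left out. Groups and replicate numbers came from the titles. Symbols were attached to 53274 of 53465 IDs, and positions, lengths and shared 31-base words came from GENCODE M21 (GRCm38).

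In R 4.3.3, edgeR 4.0.16 was used for filterByExpr, TMM scaling and 1 quasi-likelihood fit over all 9 libraries (6 residual degrees of freedom). P-values are two-sided and adjusted by Benjamini-Hochberg over 13825 genes, with a threshold of 0.05, and SE is the log2 fold change divided by the square root of F. Errors of CPM are SDs over 3 libraries. On simulated data of 13633 genes for ligation against sham, 200 genes were changed by 1 on the log2 scale. Of these the fit recovered 183 (91.5%) with the right sign, and it called 11 unchanged genes. Recovery was not split by level, so this share is not read for genes with few counts in sham, such as Krt14, Upk1b and Muc16.

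The 10 genes and the 11 gene lists (120 genes, 69 tested) were chosen with earlier results of these data known. Besides the 10 genes, the text names up to 3 genes per list and comparison with the largest change, a mean of at least 1 CPM and no overlap between groups, 10 fixed genes, and the 3 nearest in course to Msln, Krt8 and Krt14. Alternatives were other scalings and filters, DESeq2 1.42.0, 2-group fits, the replicate number as a block and leaving out each library. Summing libraries whose headers share a stem was chosen after seeing the data. Counting error only is covered by the floor of 3 counts.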

Additional observations from a re-analysis of the deposited data

How the results depend on the processing

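Counted in both directions together, all genes past the threshold and all listed genes outside the 10 past it stayed within 1.5 times the reported number in all 3 comparisons under every alternative run. By direction they did not: with cells against ligation 579 genes were higher, and 364 and 373 without ligation replicate 2 or 3, and after ligation 2783 were higher and 2494 lower, but 4966 and 1346 with library totals alone, which for cells against sham turned 2899 and 2762 into 4612 and 1698. In each fit 16 further mesothelial genes rose after ligation. The 5 that fell with cells became 3 with DESeq2, 3 with the replicate block and 3 with libraries of a shared header stem summed, and 2 to 5 when single libraries were left out, where 0 to 1 rose. Nkain4 and Cldn15 passed as lower in every fit. Aldh1a2 was lost without ligation replicate 3. The median of the 10 genes was 3.13 after ligation and 2.64 with cells against sham. With library totals alone it was 3.32 and 2.80, a scaling that puts the median of all genes at 0.20 and 0.15 and 78.7% and 73.1% of calls on the higher side (52.7% and 51.2% otherwise), and fits without single libraries gave 2.99 to 3.27 and 2.54 to 2.70. Wt1 after ligation was not past the threshold without sham replicate 3 or ligation replicate 3. Tnnt2, a cardiomyocyte gene, turned from -0.06 to 0.12 after ligation with library totals alone. Of the 10 genes only Krt18 and Upk1b changed sign in some fit, both in cells against ligation, with ranges of -0.16 to 0.08 and -0.22 to 0.04. The cause of these changes was not tested. With the replicate block 5134, 1230 and 5511 genes passed for ligation over sham, for cells over ligation and for cells over sham, in that order. Deviations of same-numbered libraries correlated at -0.194 to 0.181 over 7008 genes, so the numbers were not taken as pairs. Genes with few counts in sham, such as Krt14, Upk1b, Muc16 and Bnc1, are limited by depth.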

Other observations

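Other genes of the epithelial cytoskeleton and of retinoic acid signalling were read from the same fit. Of 13 tested intermediate filament, linker and desmosome genes, 9 rose and 2 fell after ligation, where 38.2% of all genes were called. Evpl, an envelope protein of epithelia, rose by 1.21 (SE 0.347) on the log2 scale, Des, the intermediate filament of muscle, by 0.87 (SE 0.0301) and the desmosomal protein Dsp by 0.82 (SE 0.0390). Evpl reached the filter's level in 2 sham libraries only. It was tested through its ligated levels, so the count of 9 rests partly on the filter. With cells against ligation 1 rose and 3 fell, where 4.19% and 5.69% of all genes did: Pkp2, a desmosomal plaque protein, rose by 0.22 (SE 0.0519), Ppl fell by 0.60 (SE 0.160), Des fell by 0.21 (SE 0.0299) and Vim, named after its values were seen, fell by 0.18 (SE 0.0428). Des and Dsp are abundant in cardiomyocytes, so these values are not specific to mesothelium. Without sham replicate 3 the call of Evpl was lost. For Ppl with cells the call was lost without ligation replicate 1, ligation replicate 3 or cell replicate 2, and by DESeq2.

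Of 10 tested genes of retinoic acid synthesis, carriage, reception and breakdown, 4 passed after ligation, a share close to the 38.2% of all genes, and 1 passed with cells against ligation, beside 9.87% of all genes. That gene was Cyp26b1, which breaks retinoic acid down. It fell from 20.9 ± 3.65 CPM in sham to 11.4 ± 0.484 after ligation (-0.88, SE 0.160, edgeR adjusted p 0.000175) and was at 20.1 ± 3.67 CPM with cells (0.82 against ligation, SE 0.157, edgeR adjusted p 0.00143). Aldh1a2 had the opposite order, with its highest mean after ligation. Both comparisons share the ligation libraries, whose errors enter them with opposite signs.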
